A study of Mus musculus with 5 samples.

Results

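Prg4-high articular chondrocytes rich in Col2a1 were examined in growth plate cartilage of newborn mice, from single-cell RNA-Seq of the distal femur and proximal tibia. A cell was included when Prg4 had at least 50 and Col2a1 at least 300 UMIs (counted RNA molecules) per 10000 UMIs of that cell, with Mki67 plus Top2a under 3 UMIs, Ihh under 3 UMIs and Col10a1 under 10 per 10000. The last 3 conditions left out dividing, prehypertrophic and hypertrophic cells. The rule kept 8693 of 82516 cells, or 10.5%, and these are called members here. The members were chosen on their own Prg4 and Col2a1 values, so those levels describe the choice and were not tested.

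The cells came from 5 littermate pups, 2 labelled wild type (WT) and 3 carrying the Trpv4 p.R594H change as a conditional knock-in allele switched on by Col2a1-Cre (mutant). The Cre therefore acts in cells that use, or descend from cells that used, the Col2a1 promoter. The mutant allele is heterozygous. The exact alleles of the WT littermates were not given in the sources used here, so whether they carried Cre or an unrecombined allele is unknown. The strain label is C57BL/6J, and the age is day 5 in the sample labels but day 3 in the series design and methods. Each pup was 1 library and is named below by its group and number.

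Articular chondrocytes line the joint surface. Their uppermost layer secretes lubricin, the product of Prg4, which lowers friction between the joint surfaces, and it holds less of the type II collagen network (Col2a1) than the cartilage beneath. Cells of this layer are known to give rise to deeper articular cartilage as the joint matures. Trpv4 encodes a calcium-permeable cation channel that chondrocytes use to sense load and osmotic change.

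Between 13814 and 19133 cells per pup passed the filters on genes and mitochondrial UMIs. The members summed to 15523820 and 11652039 UMIs in WT and to 10460584, 8661865 and 11872093 in mutant pups. Their median depth was higher in both WT pups (7458 and 6916 UMIs) than in any mutant pup (5417, 4677 and 5533). Pairs of libraries shared 3 to 7 cell labels. Xist, the RNA of the inactive X chromosome, had a UMI in 94.0% and 89.8% of the members of mutant 1 and 2 and in at most 2 members of any other pup, while Ddx3y of the Y chromosome showed the reverse. Sex therefore differed between the groups, with both WT pups on the same side as mutant 3.

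The markers outside the rule, Cytl1 and Wif1, were detected more often in members than in all other kept cells pooled. Cytl1, a small secreted factor of cartilage, had a UMI in 62.0% to 66.7% of members over the 5 pups, against 21.2% to 30.0% of the other kept cells. Wif1, a secreted protein that binds and blocks Wnt ligands, had one in 94.3% to 98.4% of members and in 47.8% to 56.8% of the others. As a measure of free RNA, 613 cells with at least 20 UMIs of the macrophage genes C1qa, C1qb, C1qc and Csf1r were used. Cytl1 had a UMI in 0% to 6.28% of those and Wif1 in 8.51% to 22.2%, at median depths (6753 to 10957 UMIs) above those of the members in every pup. A Prg4 UMI was found in 18.4% to 38.3% of the macrophage-marked cells, but 8 of the 613 reached the Prg4 limit and 3 met the whole rule. The Col2a1 limit was reached by 45 of the 613. Called doublets made up 0% (WT 1) to 10.8% (WT 2) of the macrophage-marked cells of a pup. The part of doublets in the gene levels of these cells was not tested. Of 576 cells with at least 10 UMIs of endothelial genes, 5 met the rule.

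The general chondrocyte genes Sox9, Acan, Hapln1 and Col9a1 were each detected in 95.1% to 100% of members. Matn1, a matrilin of growth plate cartilage, was detected in only 17.3% to 32.4% of members and in 35.8% to 61.1% of the other cells. In the macrophage-marked cells it was detected in 15.0% to 32.3%, at a mean of 434 CPM (UMIs per 1000000 UMIs) against 396 CPM in members. In WT 1, WT 2 and mutant 1, 2 and 3 these cells had 206, 421, 202, 211 and 1132 CPM. The last value came from 47 cells. Members had 303, 353, 264, 400 and 659 CPM, higher in WT 1, mutant 1 and mutant 2 and lower in the other pups. Matn1 was at a mean of 41.9 CPM in the Prg4-high cells with less Col2a1 described below. The part of free RNA in the Matn1 of members was not tested. The tissue label names growth plate cartilage and no articular surface. The word articular thus rests here on Prg4, which the rule itself used, and on Cytl1 and Wif1. The paper also identified its articular clusters by Prg4, and told subsets of them apart by further marker genes. Members were not matched to those clusters. Cytl1 was higher still in the Prg4-high cells with less Col2a1, so it does not set members apart from those cells. Summed over their lists, macrophage genes took 6.32 to 19.6 CPM (UMIs per 1000000 UMIs) in members, endothelial genes 8.42 to 23.2, skeletal muscle genes 4.27 to 16.2, osteoblast genes 29.7 to 50.7 and granulocyte genes 2.29 to 72.0. Red cell genes took 87.9 to 965 CPM. Lists that share genes with cartilage were far higher, with tendon genes, Fmod and Egr1 among them, at 6124 to 9213 CPM and perichondrial genes, led by Col1a1 and Col3a1, at 15870 to 21230 CPM, and the part of such cells in the members was not tested.

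**Figure D1:**
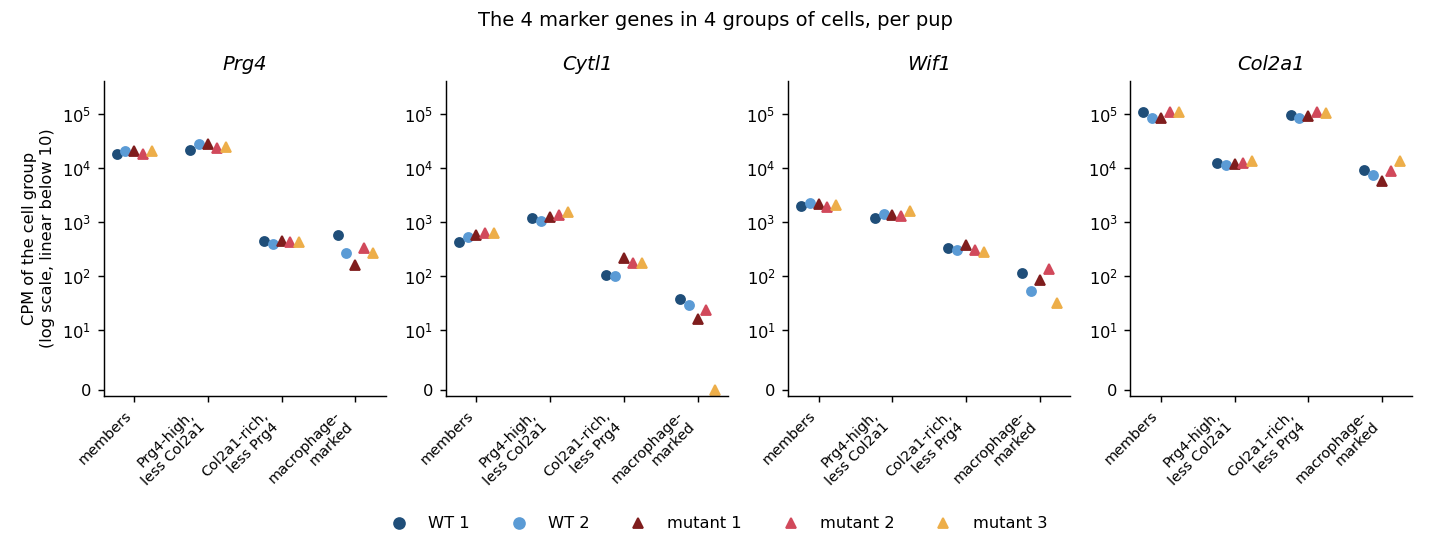
CPM (UMIs of the gene per 1000000 UMIs of the cell group, log axis, linear below 10) of Prg4, Cytl1, Wif1 and Col2a1 in members, in Prg4-high cells with less Col2a1, in Col2a1-rich cells with less Prg4 and in macrophage-marked cells; each point is 1 pup. Members lie between the other chondrocyte groups for Cytl1 and above both for Wif1, and Cytl1 is at 0 in the macrophage-marked cells of mutant 3.

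Prg4 (chr1:150449412-150466165, minus strand, GRCm38) and Col2a1 (chr15:97975602-98004695, minus strand) were carried by members in widely varying amounts. The median member had 144, 157, 160, 137 and 160 Prg4 UMIs per 10000 in WT 1, WT 2 and mutant 1, 2 and 3. The highest single member reached 1494, in WT 2. Col2a1 was at a median of 1013 and 737 per 10000 in WT and of 706, 980 and 953 in mutant pups. WT 2 and mutant 1 thus had lower Col2a1 than the other 3 pups, and the groups overlapped.

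Marker levels just inside and just outside the limits were as follows. The 668 members just inside the Prg4 limit (50 to 60 per 10000) had Cytl1 at 294 ± 79.7 CPM (SD, n = 5 pups), and the 767 cells just outside it (40 to 50) had 260 ± 72.5. Wif1 was at 1439 ± 148 CPM inside and 1370 ± 212 outside. At the Col2a1 limit, 448 members just inside had Cytl1 at 1197 ± 76.1 CPM and 453 cells just outside had 1266 ± 171.

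Members were next set beside cells that met every condition but the one on Col2a1. There were 2998 such Prg4-high cells with less Col2a1, from 367 in mutant 3 to 1072 in mutant 1. The rule itself separates the groups, so fold changes were taken within each pup, as the log2 ratio of CPM + 5, and no test was made. Of 3483 genes that averaged 50 CPM or more in either group, 26 were at least 2 times higher in members in every pup (0.746%) and 93 were at least 2 times lower (2.67%). The median over all genes was -0.20, and the genes of the rule were left out.

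Many cartilage matrix genes stood higher in members. Of 18 genes of the cartilage matrix list, 11 were at least 2 times higher in every pup and 0 at least 2 times lower, with a median log2 ratio of 2.00. Ucma, which encodes a small secreted cartilage protein rich in gamma-carboxyglutamate, was at 2354 and 1627 CPM in WT members and at 1503, 2440 and 2081 in mutant members. In Prg4-high cells with less Col2a1 it was at 246, 172, 121, 153 and 200 CPM, so the groups were far apart in each pup (log2 ratio 3.20 to 3.95). The 3 chains of collagen IX, which coats type II collagen fibrils, were also higher: Col9a3 with a ratio of 2.38 to 2.96, Col9a1 with 1.93 to 2.16 and Col9a2 with 1.91 to 2.25. Col11a2, a chain of the fibril core, had 1.86 to 2.42. The matrilins Matn1 (2.70 to 3.43) and Matn3 (2.49 to 3.22), the proteoglycans Snorc (2.21 to 2.98) and Epyc (1.79 to 2.08), and Cnmd, which blocks vessel growth into cartilage (1.87 to 2.28), were also among the 12 most raised. The other 2 were Calml3, a calmodulin-like protein, with 2.50 to 3.61, and Smoc2, a secreted calcium-binding protein, with 1.78 to 1.97.

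Acan, the large proteoglycan of cartilage, was at 2340 to 2720 CPM in members and at 1170 to 1363 in cells with less Col2a1, without overlap. Sox9, the master regulator of chondrocytes, was closer: 1821 ± 327 CPM (SD, n = 5 pups) in members and 1365 CPM in the other cells, with log2 ratios of 0.16 to 0.56. Trpv4 itself was higher in members in every pup, with 131 to 185 CPM against 54.6 to 84.2 CPM. It was lower in members than in Col2a1-rich cells with less Prg4 in every pup, where it was at 215, 146, 138, 201 and 209 CPM against 185, 131, 135, 182 and 158 in members.

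Joint surface genes did not move together in this comparison. Of 34 genes of the articular surface list, 1 (Pcolce2) was at least 2 times higher in members in every pup and 7 were at least 2 times lower, with a median log2 ratio of -0.69. Cilp, a matrix protein of the intermediate layer, was at 166 to 256 CPM in members and at 780 to 1352 CPM in cells with less Col2a1. Cytl1 was at 551 ± 80.3 CPM against 1248 CPM. Wif1 went the other way, with 2023 ± 128 CPM in members, 1349 CPM in the other cells and a log2 ratio of 0.35 to 0.76.

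Genes of the synovial lining were among those furthest below. Of 7 measured synovial list genes outside the rule, 6 were at least 2 times lower in members in every pup (Has1, Clic5, Htra4, Tspan15, Hbegf and Cd55), with a list median of -3.66. Htra4, a serine protease, was at 1.55, 9.70, 4.01, 2.31 and 1.52 CPM in members of the 5 pups and at 210, 331, 156, 162 and 80.9 in the other cells. Tspan15 was at 0.346 to 3.17 CPM in members and Cd55, a complement regulator, at 1.62 to 4.59. Clic5 was at 0.115 to 1.24 CPM in members of 4 pups and at 12.8 CPM in WT 2. Rgs5, a signalling regulator typical of pericytes, had a ratio of -5.57 to -4.14, and Aldh1a3, a retinoic acid synthesising enzyme, one of -4.43 to -3.38. Stc1, a secreted glycoprotein, and Col22a1, a collagen of tissue junctions, completed the 8 genes furthest below, with ratios of -4.90 to -3.15 and -4.57 to -2.77. The part of synovial cells among the cells with less Col2a1 in each fold was not tested.

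The second neighbour was the 31245 Col2a1-rich cells that met every condition but the one on Prg4. Of 3167 genes considered, 71 were at least 2 times higher in members in every pup (2.24%) and 66 at least 2 times lower (2.08%), with a median of 0.06 over all genes. Here 7 of 29 articular surface genes were at least 2 times higher (Cytl1, Erg, Creb5, Vit, Abi3bp, Cilp and Osr2) and 1, Pcolce2, was lower, with a list median of 0.69. Cilp, at 8.63 to 16.4 CPM in these cells, had a log2 ratio of 3.24 to 3.92. Creb5, a transcription factor of the CREB and ATF family that controls Prg4 in superficial chondrocytes, was at 513, 533, 594, 600 and 559 CPM in members and at 76.7, 76.7, 95.4, 87.8 and 71.9 CPM in the other cells. Its ratio was nearly the same in every pup, 2.58 to 2.88. Vit, a matrix protein, had 2.44 to 3.26. Wif1 was at 1955, 2183, 2114, 1860 and 2004 CPM in members against 323, 301, 361, 295 and 270 CPM, the smallest gap in any pup being 2.53 on the log2 scale.

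The remaining genes most raised over Col2a1-rich cells had varied roles. Casr, the calcium-sensing receptor, was at 49.2 to 68.1 CPM in members and at 5.24 to 10.5 in the other cells. Sema3e, a guidance ligand, had a log2 ratio of 2.32 to 2.88. Sulf2, which trims heparan sulphate and so frees bound growth factors, had 1.91 to 2.54. Chst3, a chondroitin sulphotransferase, had 1.86 to 2.23. Egfl6 (2.50 to 3.41) and Itih5 (2.40 to 2.65) encode secreted matrix proteins, Cyfip2 (2.98 to 3.95) a regulator of actin branching and Cd34 (1.83 to 2.41) a surface sialomucin. Cd34 split the pups: it was at 97.2 and 96.3 CPM in members of WT 2 and mutant 1 and at 40.8 to 45.0 in the other 3.

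Inhibitors and receptors of Wnt and Hedgehog signalling differed from gene to gene. Of 8 measured Wnt antagonists, Wif1 and Dkk3 were at least 2 times higher in members and Sfrp5 at least 2 times lower. Dkk3 was at 222 ± 21.6 CPM against 49.0 CPM. Sfrp5, an antagonist of the frizzled-related family, was at 7.07 to 17.2 CPM in members and 49.9 to 152 CPM in Col2a1-rich cells. Of 8 Hedgehog and PTHrP pathway genes, Hhip, Cdon and Gas1 were at least 2 times higher and Pth1r was lower. Gas1, a Hedgehog co-receptor, was at 1190 ± 271 CPM against 304 CPM. Hhip, a decoy that binds Hedgehog ligands, was at 48.3 and 126 CPM in WT members and at 138, 80.5 and 67.5 in mutant members, against 13.0 to 19.0 CPM in the other cells. Ptch1, itself induced by Hedgehog, was at 63.7 CPM in members and 145 CPM in the other cells, with a ratio of -1.59 to -0.75.

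Matrilins and some growth plate genes stood lower. Of 12 growth plate list genes, 4 were at least 2 times lower in members than in Col2a1-rich cells in every pup (Sfrp5, Pth1r, Panx3 and Matn1) and 1, Gas1, was at least 2 times higher, with a median log2 ratio of -1.17. Of 18 cartilage matrix genes 4 were at least 2 times lower in members than in Col2a1-rich cells in every pup (Matn1, Matn3, Epyc and Snorc) and 0 at least 2 times higher, with a median of -0.83. Members thus had less Matn1 than the Col2a1-rich cells (303, 353, 264, 400 and 659 CPM against 4468, 4704, 3763, 3916 and 5434). They had more of it than the Prg4-high cells with less Col2a1. Panx3, a channel protein of prehypertrophic cartilage, had a ratio of -4.22 to -3.71, and C1qtnf3, a secreted growth factor-like protein of the growth plate, one of -3.35 to -3.17. Il17b, Runx3 and Cited2 were also among the 8 furthest below. Runx2, which drives hypertrophy, was at 27.3 ± 2.73 CPM in members and 138 CPM in the other cells. Among transcription factors, 4 of 23 were at least 2 times higher (Erg, Creb5, Barx1 and Osr2) and 3 lower (Runx2, Runx3 and Zfp36). Zfp36 belongs to the early genes that dissociation induces, and the dissociation list as a whole had a median of -0.995 over 19 genes, with 2 at least 2 times lower. Col2a1-rich cells were also deeper, with medians of 6831 to 11360 UMIs against 4677 to 7458 in members.

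**Figure D2:**
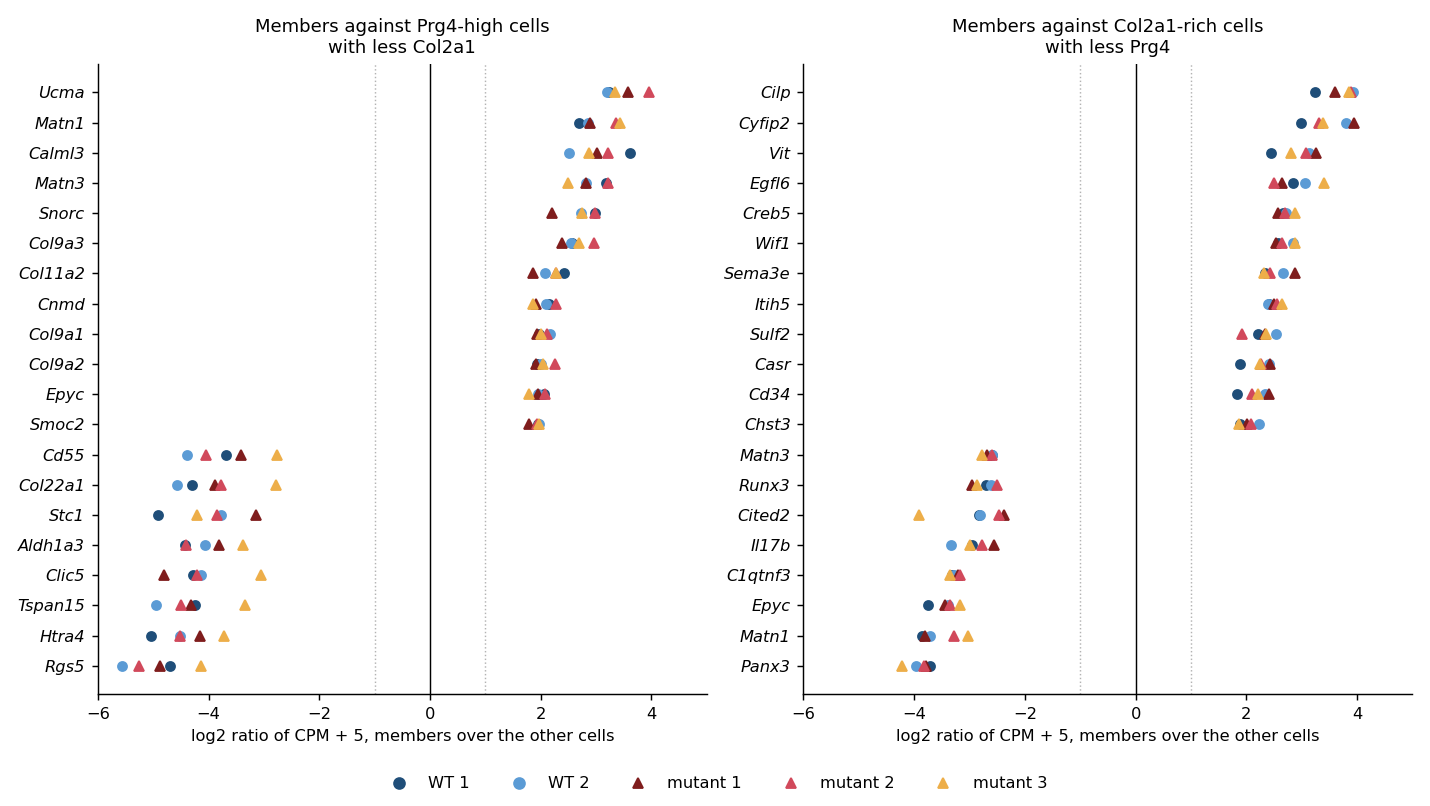
Log2 ratio of CPM + 5 in members over Prg4-high cells with less Col2a1 (left) and over Col2a1-rich cells with less Prg4 (right), for the 12 genes furthest above and the 8 furthest below; each point is 1 pup and dotted lines mark a 2-fold difference. All points of a gene lie on 1 side; Epyc, Matn1 and Matn3 lie to the right on the left and to the left on the right.

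Of 26 TGF-beta and BMP genes, 2 were at least 2 times higher in members than in Col2a1-rich cells (Bmp6 and Acvr1) and 1 was at least 2 times lower (Id1). Of 29 such genes, 2 were at least 2 times higher than in cells with less Col2a1, Grem1 among them, and 2 at least 2 times lower (Tgfbr3 and Bmp7), with a median log2 ratio of -0.39. Grem1, a secreted BMP antagonist, was at 133 to 227 CPM in members and at 29.2 to 60.1 CPM in cells with less Col2a1. Bmp6 was at 127 ± 17.8 CPM against 46.6 CPM in Col2a1-rich cells. Of the mechanotransduction and calcium genes, 0 of 19 passed 2-fold in either direction against cells with less Col2a1. Against Col2a1-rich cells 0 of 18 were at least 2 times higher and 1 was lower (Ccn1, a secreted matricellular protein). Piezo1, a stretch-gated channel, was nonetheless at 186 ± 11.1 CPM in members against 99.8 CPM in Col2a1-rich cells and 254 CPM in cells with less Col2a1.

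Of the collagens and elastic fibre genes of the surface list, 0 of 21 were at least 2 times higher than in cells with less Col2a1 and 3 were lower (Col22a1, Eln and Fbln2), and Col5a1 and Col15a1 were at least 2 times higher than in Col2a1-rich cells. Col15a1, a basement membrane-associated collagen, was at 678 to 810 CPM in members and at 300 to 381 CPM in Col2a1-rich cells. Leucine-rich proteoglycans split, with Epyc and Chad at least 2 times higher and Aspn and Podn at least 2 times lower than in cells with less Col2a1. Prelp, which anchors basement membranes to collagen, was at 820 ± 78.3 CPM in members, 790 CPM in cells with less Col2a1 and 759 CPM in Col2a1-rich cells, with ratios on both sides of 0 in each comparison.

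Within the members, several genes of the joint surface, Cytl1, Cilp, Vit, Creb5 and Erg among them, rose with Prg4 and fell with Col2a1. Members were divided by Prg4 into 4 bins per pup (50 to 100, 100 to 200, 200 to 400, and 400 or more UMIs per 10000) and separately by Col2a1 (300 to 600, 600 to 900, 900 to 1200, and 1200 or more). The bins hold 153 to 691 members of a pup each. They are cut on the rule's own genes, so the trends are a description. Of 213 list genes with at least 50 CPM in members, 19 rose at all 3 Prg4 steps in every pup and 28 fell, while 15 rose and 38 fell with Col2a1. Of these, 11 rose with Prg4 and fell with Col2a1 (Cilp, Creb5, Cthrc1, Cytl1, Dkk3, Erg, Hhip, Itih5, Ppp3ca, Scara3 and Vit), 10 did the reverse (among them Chad, Cnmd, Col11a2, Col9a1, Col9a3, Cxcl14, Dcn, Snorc and Ucma) and 0 rose with both.

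Cytl1 rose from a mean of 332 ± 63.9 CPM (SD, n = 5 pups) in the lowest Prg4 bin to 497 ± 71.8, 714 ± 103 and 1095 ± 190 in the next 3. It fell from 1103 ± 193 to 693 ± 188, 364 ± 105 and 151 ± 60.4 over the Col2a1 bins. Cilp had the steepest fall with Col2a1, from 598 ± 108 to 25.3 ± 13.3 CPM, and rose from 99.6 ± 10.7 to 512 ± 145 with Prg4. Hhip rose most with Prg4, from 35.0 ± 6.00 to 263 ± 101 CPM, a log2 ratio of 2.17 to 3.07 over the pups. Over the pups the ratio was 1.91 to 2.75 for Vit and 0.97 to 1.45 for Creb5.

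Wif1 took another course. It rose at every Prg4 step, from 1590 ± 107 to 2813 ± 110 CPM, and did not fall with Col2a1, being at 1684 ± 169 in the lowest and 2328 ± 55.5 in the highest Col2a1 bin. Trpv4 rose at all 3 Col2a1 steps in every pup, from 131 to 177 CPM. Matn1 fell furthest with Prg4, from 690 ± 305 to 55.5 ± 24.4 CPM. It had no ordered course with Col2a1, where mutant 3 alone reached 1529 CPM in the third bin. Called doublets made up 3.82% of that bin in mutant 3 and at most 1.26% of it in any other pup. Their part in the Matn1 value was not tested. Of 18 cartilage matrix genes, 11 fell and 1 rose at every Prg4 step, and 10 rose and 1 fell at every Col2a1 step. Of 29 articular surface genes, 7 rose and 2 fell with Prg4 (Ogn and Pcolce2), while 1 rose (Comp) and 13 fell with Col2a1.

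Several measures moved with the bins. Col2a1 fell from a mean of 103400 CPM in the lowest Prg4 bin to 76900 CPM in the highest, and was lower in every pup. Prg4 fell from 24070 CPM in the lowest Col2a1 bin to 15120 CPM in the highest, again in every pup. A rise with Prg4 and a fall with Col2a1 are therefore not separate observations. The part of each gene in these opposite courses was not tested. Col2a1 itself took 45210 CPM in its lowest and 149300 in its highest bin, which leaves a smaller share of the UMIs to every other gene in the highest bin. The median depth was 4963 to 8050 UMIs in the lowest and 4056 to 6580 in the highest Prg4 bin, and 3864 to 6188 and 5264 to 8479 in the lowest and highest Col2a1 bins. Called doublets made up 2.44% to 3.99% of the lowest Prg4 bin and 0% to 0.794% of the highest, and 2.74% to 4.65% of the lowest and 0% to 0.176% of the highest Col2a1 bin. Without the called doublets 20 genes rose and 26 fell with Prg4, and 13 rose and 39 fell with Col2a1.

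**Figure D3:**
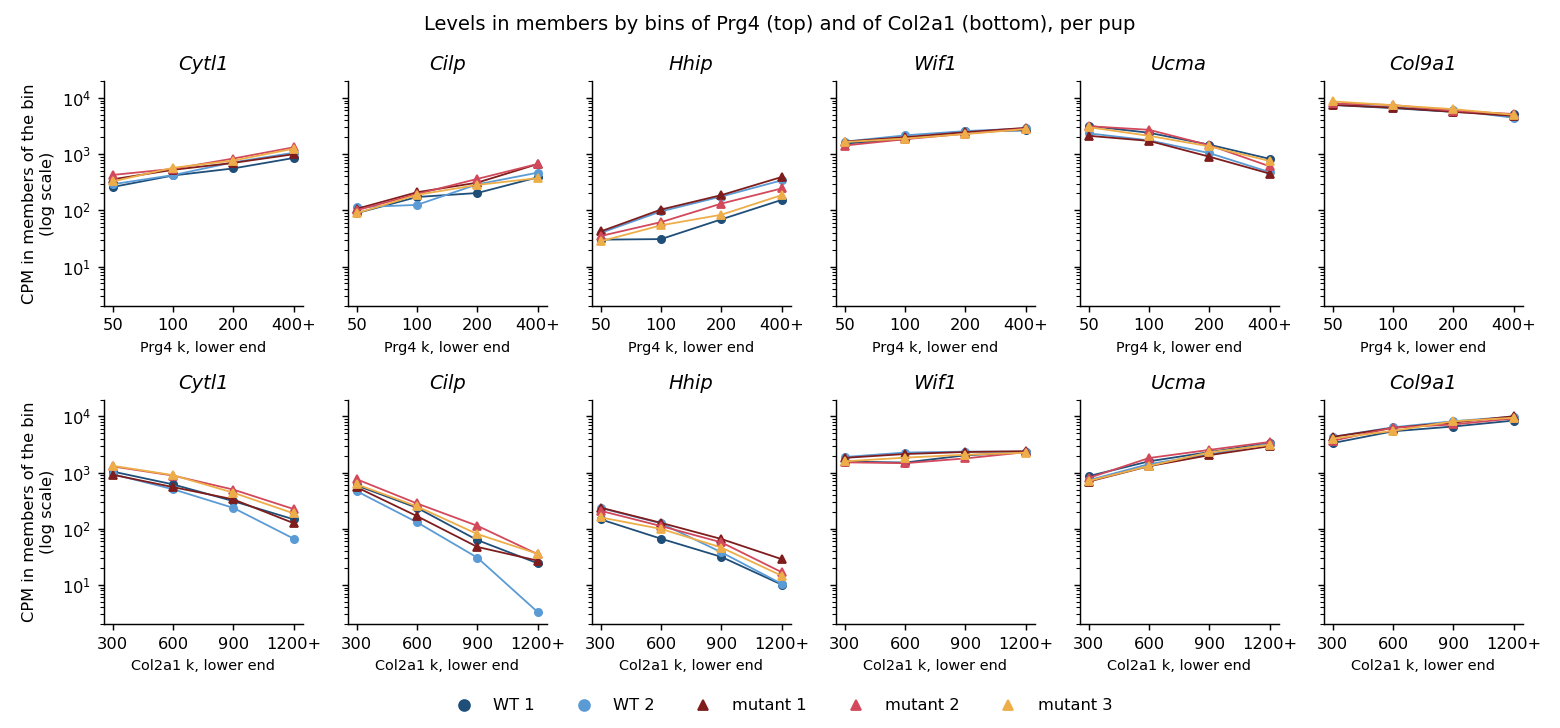
CPM (log axis) of 6 genes in members divided by Prg4 (top row) and by Col2a1 (bottom row), with 1 line per pup and the lower end of each bin (k, UMIs per 10000 UMIs of the cell) on the x axis. Cytl1, Cilp and Hhip climb with Prg4 and drop with Col2a1, Ucma and Col9a1 do the opposite, and Wif1 climbs with Prg4 and does not drop with Col2a1.

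The DNA just before the start of these genes is shown for the members' markers that follow Prg4 and for 2 genes that fall with it. Of 12 genes looked up in the RefSeq promoter table (GRCm38.p6), 9 had an entry. Prg4, Vit and Col2a1 had none. Each line gives the 250 bases before the start, 5′ to 3′ on the gene's strand, in lower case. Capitals mark a cyclic AMP response element (TGACGTCA, read the same on both strands, which CREB and ATF proteins bind) or an AP-1 site (TGANTCA, on either strand; the 2 motifs differ in length and cannot cover the same letters). The windows are, in order, chr5:37735269-37735518 (plus), chr10:121033754-121034003 (plus), chr9:65264930-65265179 (plus), chr8:80058009-80058258 (minus), chr6:53287053-53287302 (plus), chr2:4975872-4976121 (plus) and chr4:130944135-130944384 (plus).
Cytl1: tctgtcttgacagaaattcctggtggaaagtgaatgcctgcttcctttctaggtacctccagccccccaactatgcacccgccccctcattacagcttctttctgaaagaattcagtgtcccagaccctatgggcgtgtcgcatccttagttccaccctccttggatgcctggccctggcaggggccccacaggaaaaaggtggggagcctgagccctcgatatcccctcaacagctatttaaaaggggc
Wif1: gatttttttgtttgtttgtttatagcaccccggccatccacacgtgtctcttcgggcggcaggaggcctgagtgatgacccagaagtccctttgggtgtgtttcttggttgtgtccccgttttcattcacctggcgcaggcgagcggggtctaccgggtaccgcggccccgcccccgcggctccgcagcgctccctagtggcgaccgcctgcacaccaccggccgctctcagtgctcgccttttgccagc
Cilp: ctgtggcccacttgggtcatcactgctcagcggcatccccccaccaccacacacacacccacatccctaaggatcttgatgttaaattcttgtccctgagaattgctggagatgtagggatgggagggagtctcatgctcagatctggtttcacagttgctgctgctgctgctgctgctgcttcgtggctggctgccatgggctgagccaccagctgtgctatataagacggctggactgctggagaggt
Hhip: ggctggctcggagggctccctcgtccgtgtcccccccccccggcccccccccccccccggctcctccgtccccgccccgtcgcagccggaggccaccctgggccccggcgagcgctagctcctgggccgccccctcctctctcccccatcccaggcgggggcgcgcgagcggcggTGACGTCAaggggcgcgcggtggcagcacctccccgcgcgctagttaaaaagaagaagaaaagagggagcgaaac
Creb5: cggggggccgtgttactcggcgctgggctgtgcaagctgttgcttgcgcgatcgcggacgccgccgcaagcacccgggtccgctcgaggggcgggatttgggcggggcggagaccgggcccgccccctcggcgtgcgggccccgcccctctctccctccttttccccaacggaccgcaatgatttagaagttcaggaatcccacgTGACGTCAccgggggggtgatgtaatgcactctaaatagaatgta
Ucma: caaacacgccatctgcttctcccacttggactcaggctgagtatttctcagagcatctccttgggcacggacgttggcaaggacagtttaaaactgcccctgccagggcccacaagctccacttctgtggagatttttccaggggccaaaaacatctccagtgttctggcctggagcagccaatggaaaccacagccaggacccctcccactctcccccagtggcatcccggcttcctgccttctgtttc
Matn1: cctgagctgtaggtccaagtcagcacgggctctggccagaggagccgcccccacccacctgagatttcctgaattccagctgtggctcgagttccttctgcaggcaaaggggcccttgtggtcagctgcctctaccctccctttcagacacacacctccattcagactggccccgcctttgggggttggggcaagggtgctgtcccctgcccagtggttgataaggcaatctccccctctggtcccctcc
The cyclic AMP response element occurred once in the Hhip window, 75 bases before the start, and once in the first of 2 Creb5 starts, 45 bases before it. It occurred in 1.55% of all 32851 windows of this length. The second Creb5 start held an AP-1 match, which 6.75% of windows hold. The other printed windows had no match of either motif, and no factor binding was measured.

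The share of members was compared between genotypes, since the rule did not use the genotype. Members made up 12.4% and 9.23% of the kept cells of the WT pups and 8.94%, 9.27% and 13.9% of those of mutant pups. The groups overlapped, at 10.8% ± 2.25 (SD, n = 2) and 10.7% ± 2.75 (SD, n = 3). The difference, mutant minus WT, was -0.130 percentage points (2-sided exact permutation test, p = 0.9, where the smallest p that 10 placements allow is 0.1). Among cells past the Prg4 limit, members made up 75.8% and 60.4% in WT and 56.9%, 73.5% and 79.7% in mutant pups, a difference of 1.89 points in the other direction (exact permutation p = 0.8). WT 2 and mutant 1 had the lowest of these shares and the most Prg4-high cells of less Col2a1 (765 and 1072). Those cells are part of the total that the share is taken of, so this is not a separate observation.

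**Figure D4:**
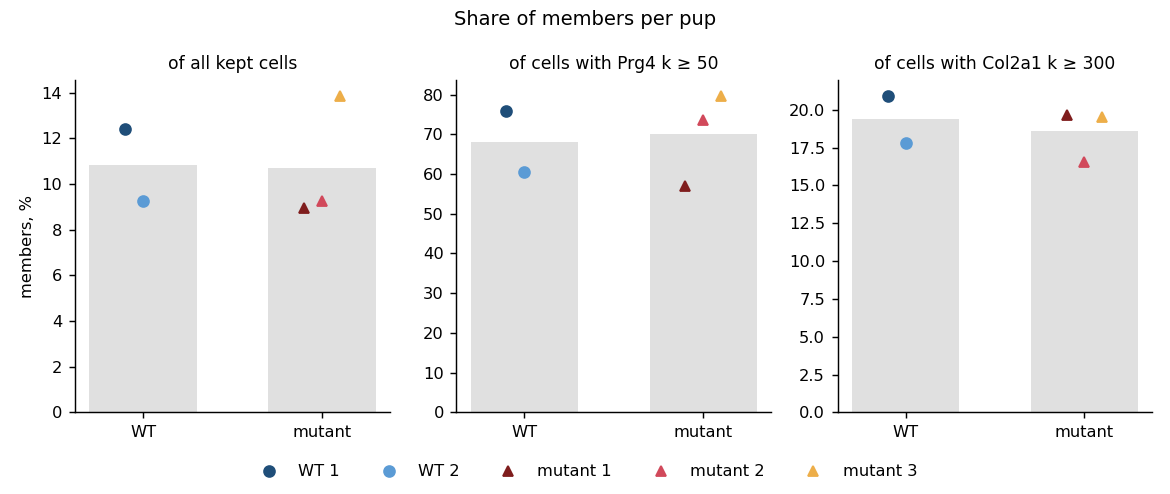
Members as a percentage of all kept cells, of cells past the Prg4 limit and of cells past the Col2a1 limit (k, UMIs per 10000 UMIs of the cell); each point is 1 pup and each bar the mean of its group. The 3 mutant pups span the 2 WT pups in the first 2 panels.

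Expression in members was then compared between genotypes on UMI counts summed per pup, with levels here scaled by edgeR (TMM CPM). Trpv4 (chr5:114622152-114658421, minus strand), the gene that carries the change, was at 192 and 123 CPM in WT and at 128, 191 and 163 CPM in mutant pups. The log2 fold change was 0.03 ± 0.23 (SE, adjusted p = 0.987, edgeR). Here and below, the SE beside an edgeR fold change was derived from the test and not fitted. It is the absolute log2 fold change divided by the square root of the test's F statistic. The groups overlapped, and counts per gene cannot tell the changed allele from the normal one.

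Of 13279 genes tested in members, 1 passed an adjusted p of 0.05 in edgeR's quasi-likelihood test (0.00753%), while 688 had an unadjusted p under 0.05 and DESeq2 called 4. The called gene was Myh11, the myosin heavy chain of smooth muscle (chr16:14194535-14291372, minus strand), with 3.60 and 3.86 CPM in WT and 0.364, 0.243 and 0.0873 CPM in mutant members. The log2 fold change was -3.96 ± 0.45 (SE derived from the F statistic, adjusted p = 0.0451, edgeR). With 4, 2 and 1 UMIs in the mutant pups, the gene passed the filter on low counts only through the WT pups, where it is high. Few cells carried these reads. WT 1 had 54 Myh11 UMIs, of which 49 were in 1 of its 1878 members, WT 2 had 48 with 25 in 1 member, and no mutant member had more than 1. Tagln, another smooth muscle gene, had 45 and 47 UMIs in WT and 13, 5 and 6 in mutant members, with 36 of the 45 in WT 1 in 1 member. In all kept cells Myh11 was at 11.8 and 48.7 CPM in WT and at 19.3, 5.37 and 2.22 CPM in mutant pups. The call was lost when Xist was added to the model, when the rule was applied to cells thinned to 3000 UMIs or loosened to a Prg4 value of 30, and when any 1 mutant pup was left out. The fold change was then -5.25, -2.62, -4.44 and, without a mutant pup, -4.51 to -3.54. In the fit with Xist the genotype effect rested on mutant 3 alone against the WT pups, because mutant 1 and mutant 2 carried the Xist term.

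The 5 genes averaging 20 CPM or more with the lowest unadjusted p after Myh11 were Ntn1, Slc23a2, Stc1, Acvr1 and Snhg3, and none passed the adjusted threshold in edgeR. With low-count genes kept in, 41 of 23850 genes passed in edgeR. Ntn1 (adjusted p = 9.797e-07), Slc23a2 (0.0279), Stc1 (0.0258) and Acvr1 (0.0202) were among them. So were Vit, Egr1 and the smooth muscle and pericyte genes Tagln, Acta2 and Rgs5. The fold change of Ntn1 was 0.80 in both edgeR fits, with an unadjusted p of 0.000287 with the filter and 1.64e-10 without it. The setting without the filter was not tried on simulated data. Ntn1, a netrin guidance cue, was at 79.6 and 74.7 CPM in WT and at 115, 164 and 126 CPM in mutant members (log2 fold change 0.80 ± 0.15, adjusted p = 0.904). DESeq2 called it. Acvr1, a type I receptor for BMPs and activins, was at 117 and 132 CPM in WT and at 163, 185 and 190 CPM in mutant members (0.53 ± 0.11, adjusted p = 0.904). Slc23a2, a vitamin C transporter, was at 16.2 and 18.3 CPM against 24.5, 27.8 and 27.1 CPM. Stc1 was at 15.4 and 17.4 CPM against 23.0, 27.7 and 25.4 CPM, and Snhg3, a small nucleolar RNA host gene, at 35.1 and 33.8 CPM against 47.7, 49.2 and 46.2 CPM. All mutant pups were above both WT pups for these 5 genes, as they were for 1362 of all genes tested (10.3%); the reverse held for 1541 genes (11.6%).

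The marker genes did not pass. Cytl1 was at 440 and 492 CPM in WT and at 542, 655 and 637 CPM in mutant members (0.39 ± 0.12, adjusted p = 0.904), with no overlap between the groups. Wif1 was at 2024 and 2045 CPM in WT and at 2015, 1958 and 2076 CPM in mutant members (-0.01 ± 0.10, adjusted p = 0.988). Creb5 was at 531 and 500 CPM against 566, 631 and 579 CPM. Over the gene lists, 392 genes were tested and 36 had an unadjusted p under 0.05, beside 688 of all 13279 genes. The edgeR test called 0 of them and DESeq2 called 1, Xist, of its 4 calls over all genes. The mutant pups were all higher for 11.2% of list genes and all lower for 7.40%, beside 10.3% and 11.6% of all genes.

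Among the lists, the articular surface genes had 26 of 39 positive fold changes with all mutant pups higher for 7 genes and lower for 0, beside 10.3% and 11.6% of all genes tested, and a median log2 fold change of 0.10. The cartilage matrix genes had 8 of 18 positive, a median of -0.02, and 1 gene higher and 1 lower in all mutant pups. The Wnt antagonists had 7 of 11 positive (median 0.02, 1 higher and 0 lower in all mutant pups), and the Hedgehog and PTHrP genes 9 of 13 (median 0.10, 2 higher and 2 lower). The TGF-beta and BMP genes had 33 of 49 positive (median 0.07, 7 higher and 5 lower), and the mechanotransduction and calcium genes 15 of 22 (median 0.09, 5 higher and 0 lower). Over all genes tested the median was -0.0043. Fold changes of single genes ran from -0.61 to 0.53 in the articular surface list.

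Red cell and dissociation genes were measured in the same libraries. Haemoglobin and other red cell genes summed to 537 and 965 CPM in WT members and to 352, 395 and 87.9 CPM in mutant members, and 6 of 7 were lower in every mutant pup, beside 11.6% of all genes tested. Hba-a1 had a UMI in 7.35% and 11.6% of WT members and in 3.39%, 1.63% and 2.35% of mutant members. The early genes that dissociation induces summed to 12460 and 8985 CPM in WT and to 6331, 8382 and 8996 CPM in mutant members, so the groups overlapped, and 5 of 20 were lower in every mutant pup and 1 higher, beside 11.6% and 10.3% of all genes. Egr1, one of them, was at 1520 and 989 CPM in WT and at 603, 826 and 890 CPM in mutant members (-0.70 ± 0.23, adjusted p = 0.904). It was -0.35 without WT 1 and -0.97 without WT 2. The part of depth, sex, red cell RNA and dissociation in these differences was not tested beyond the fit with Xist. That fit sets mutant 3 alone against the WT pups.

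**Figure D5:**
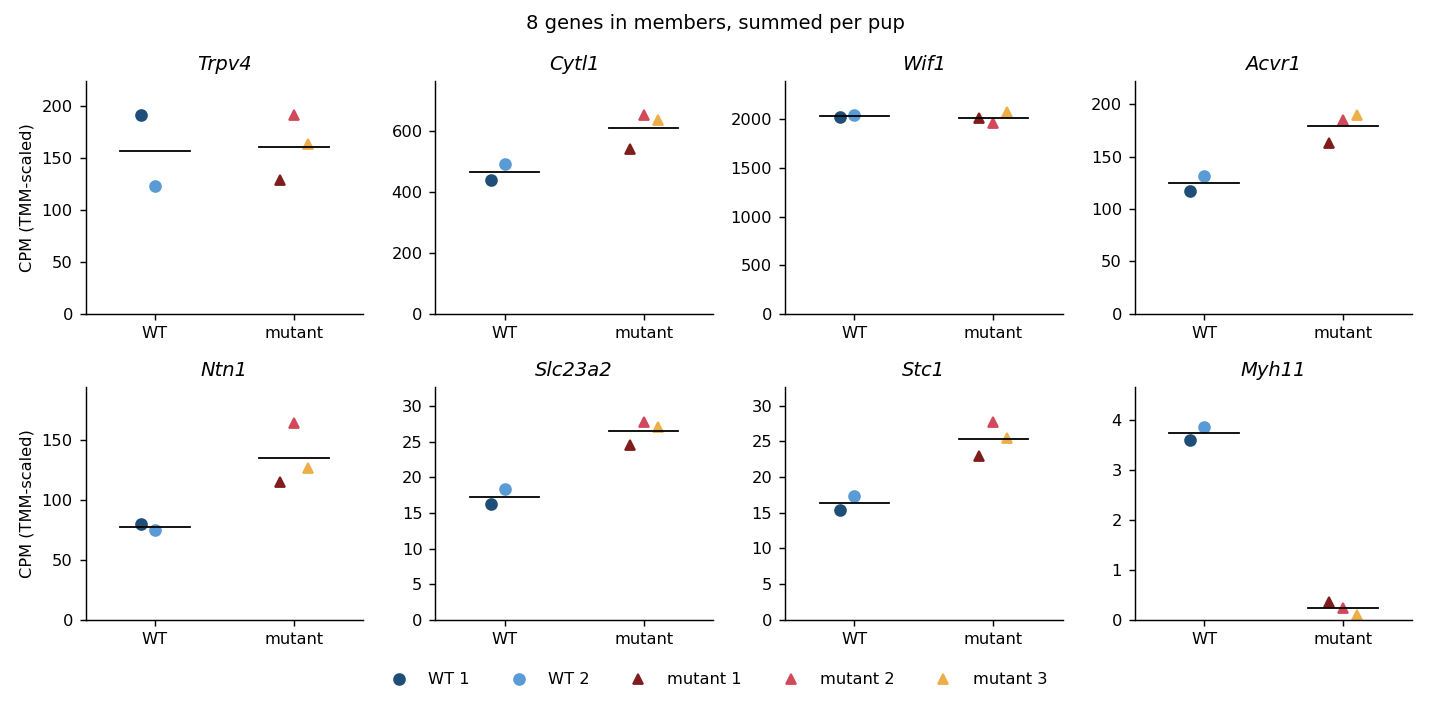
TMM CPM of 8 genes in members, with 1 point per pup and a line at the group mean; every axis starts at 0. Trpv4 and Wif1 overlap between groups, Cytl1, Acvr1, Ntn1, Slc23a2 and Stc1 are higher in all 3 mutant pups without passing the adjusted threshold, and Myh11 is below 4 CPM in every pup.

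The last comparison asked whether the genotype difference in members was unlike that in their neighbours, from the interaction of cell group and genotype with the pup as a block. Against Prg4-high cells with less Col2a1, 1 of 13231 genes passed (0.00756%), with 568 at an unadjusted p under 0.05 and 0 called by DESeq2. The gene was Fosl1 (chr19:5447547-5455946, plus strand), a Fos-family subunit of AP-1. It was at 63.4 and 45.4 CPM in WT members and at 23.9, 50.7 and 62.2 CPM in mutant members, so that the groups overlapped. In cells with less Col2a1 it was at 24.0 and 14.8 CPM in WT and at 20.3, 41.6 and 46.5 CPM in mutant pups. The log2 fold change was -0.26 in members and 0.86 in the others when each was fitted alone. In the joint fit with the pup as a block the difference was -1.20 ± 0.17 (SE; edgeR adjusted p = 0.0223). With DESeq2 the difference had an adjusted p of 0.105. The call was also lost when any pup other than WT 1 was left out, with differences of -1.25 to -1.09. Against Col2a1-rich cells with less Prg4, edgeR called 0 of 16934 genes (0.0%), with 610 at an unadjusted p under 0.05, and DESeq2 called 0.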

How the data were processed

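The libraries were made with BD Rhapsody HT Express, and the authors deposited 1 raw UMI count matrix per pup, made with the platform maker's cloud pipeline on mm10 (version not given in the sources used here). Cells with 200 to 6000 detected genes and at most 10% mitochondrial UMIs were kept, and the 3 further gene limits of the rule were applied per cell. UMI counts were summed per pup and cell group. Genotypes were compared with edgeR 4.0.16 (TMM, filterByExpr, robust quasi-likelihood test, Benjamini-Hochberg adjustment over all genes outside the rule) in R 4.3.3, and DESeq2 1.42.0 was an alternative. The test script was tested on simulated data, where the share of false calls exceeded the nominal one and edgeR missed most of the smaller changes. The edgeR test also made calls in the simulated run where no gene was changed. The pups are littermates, 1 library each, so each p-value rests on 2 and 3 pups. The variance that edgeR used for a gene was also drawn toward that of the other genes. Cells were not used as replicates.

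Doublets were called with Scrublet (scanpy 1.11.5) at 1 threshold, 0.3497, set after seeing that the automatic threshold called 0 cells in 2 pups. They were kept in the main values. Named genes were the markers, Trpv4, Xist, Ddx3y, the 4 most abundant genes of each of 29 lists, list genes past a threshold, the 12 and 8 genes furthest apart from each neighbour, and the called or 5 lowest-p genes (mean of at least 20 CPM) of a genotype test. Ptch1, Piezo1, Runx2, Tagln and Hba-a1 were picked with their values in view. The members and lists were chosen with earlier results of these data known.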

Additional observations from a re-analysis of the deposited data

Results flagged for a closer look

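Fosl1 is listed because its mutant against WT change differed between members and Prg4-high cells with less Col2a1 by a test of the difference itself, with a log2 difference of -1.20 (edgeR's quasi-likelihood test, adjusted p = 0.0223). In members mutant 1 was lowest (23.9 CPM) and the other 2 mutant pups (50.7 and 62.2) lay beside the WT pups (63.4 and 45.4). In the cells with less Col2a1 the WT pups had 24.0 and 14.8 CPM and the mutant pups 20.3, 41.6 and 46.5, so that members were further above these cells in both WT pups than in any mutant pup. The difference ran from -1.30 to -1.09 when 1 pup was left out, and its adjusted p was 0.00678 without WT replicate 1, 0.0987 without WT replicate 2 and 0.0807, 0.125 and 0.0628 without mutant replicates 1, 2 and 3. Fosl1 is an early gene of the kind that dissociation induces, and the summed dissociation genes of the members ranged from 6331 CPM in mutant 1 to 12460 CPM in WT 1; their part in the difference was not tested.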

How the results depend on the processing

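Of the main results under each alternative, 21 counts moved by over 1.5 times and 4 share differences changed sign. The other 80 were counts within 1.5 times of the main one or share differences that kept their sign and moved by less than the spread between pups. Many of them were counts of genes that had to pass in every pup, taken with 1 pup left out. Leaving a pup out loosens that condition, so the bin counts could not fall. The counts against neighbours could fall only through the minimum of mean CPM. These counts are therefore a weak check. Causes were not tested. The share difference was 1.89 points among cells past the Prg4 limit and ran from -1.72 to 1.46 when 1 pup was left out, positive without WT replicate 1 (1.46), mutant replicate 1 (0.746) or mutant replicate 2 (0.580). Genes called between genotypes numbered 0 with a Prg4 limit of 30, 0 in thinned cells, 0 with Xist as a further term (734, 679 and 742 at an unadjusted p under 0.05 in edgeR, which called 1 in the main values), 4 with DESeq2, 41 with no filter on low counts and 0 to 13 when 1 pup was left out (13 without WT replicate 2). The difference between genotype effects was called for 0 genes with DESeq2, 31 with no filter and 0 to 11 without 1 pup (11 without WT replicate 1) against cells with less Col2a1, and for 43 with no filter and 0 to 2 without 1 pup against cells with less Prg4. Against cells with Col2a1 under 100 per 10000, 50 genes were higher and 168 lower in members, and with no minimum of CPM 129 were lower than in Col2a1-rich cells. Of single genes, Trpv4 ran from -0.25 (without WT replicate 2) to 0.39 when 1 pup was left out, with -0.11 without mutant replicate 2, Wif1 ran from -0.03 to 0.01 (without mutant replicate 2) and was 0.03 with the Xist term, and Xist -0.68 and Ddx3y 0.07 with the Xist term. Myh11 was called in 8 of 14 alternatives, with fold changes from -5.25 to -2.62. No paired analysis was possible, because the replicate numbers were given within each group and tie no WT pup to a mutant pup. With 2 and 3 pups the exact test of the share cannot go below 0.1.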
